A study of Mus musculus with 6 samples.

Results

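A group of 9 cytokine and chemokine genes was followed in mouse bone marrow RNA: Cxcl2, Ccl3, Ccl4, Ccl6 and Ccl9, the interleukin-1 pair Il1b and Il1rn, and Tnf and Il6. They were taken by gene symbol as 9 of the 26981 genes of the deposited count table that had a read in the 5 deeper libraries, and all 9 passed the filter on low counts. The study compared poly-A RNA of cells labelled bone marrow mesenchymal stromal cells (MSC) from Hes1 knockout mice (Hes1KO, 3 libraries) and from wild-type mice (WT, 3 libraries), and its title places inflammation driven by NFATc2 downstream of Hes1, a transcriptional repressor. The mice were on the C57BL/6 background; Hes1 was removed by crossing floxed mice with Prx1Cre (Prrx1Cre), a transgene whose promoter drives Cre in early limb bud mesenchyme and some craniofacial mesenchyme. The genotype field reads Hes1KO, whereas the extraction note names heterozygous Hes1fl/+ mice for all libraries, and whether the WT mice carried Cre or the floxed allele is not given. Age, sex and whether each library came from a separate animal are not given either, so every p-value measures the spread between these libraries, which may be technical.

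Cytokines of this group carry alarm signals between cells of the marrow. The chemokines call in leukocytes through receptors on their surface: Cxcl2 acts on Cxcr2 of neutrophils, while Ccl3, Ccl6 and Ccl9 act on Ccr1. Il1b encodes interleukin-1 beta, which caspase-1 cleaves into its active form, and Il1rn encodes the antagonist that occupies the same receptor without signalling. Tnf and Il6 encode cytokines of the acute inflammatory response. Myeloid cells are a main source of all of these, and stromal cells can make Il6 and some of the chemokines.

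Nuclear factor kappaB and NFAT are known activators of genes of this kind, so the 250 bases before each start site were searched for their motifs, on both strands. RefSeq windows of build GRCm38.p6 were matched for 8 of the 9 genes (10 windows, since Il1rn has 3), and Ccl4 was not searched. The kappaB motif was found in 3 of the 10 windows, each of a different gene, against 7.25% of all 32851 windows of this length. The share of all genes with a match was not computed. These 3 windows are shown because the genes that share the motif differed in their counts, as given further on. They are written 5′ to 3′ on the gene's strand, with the kappaB match in capitals. The Cxcl2 window is chr5:90903649-90903898 on the plus strand, that of Ccl9 is chr11:83578637-83578886 on the minus strand, and that of Il6 is chr5:30012864-30013113 on the plus strand.
Cxcl2: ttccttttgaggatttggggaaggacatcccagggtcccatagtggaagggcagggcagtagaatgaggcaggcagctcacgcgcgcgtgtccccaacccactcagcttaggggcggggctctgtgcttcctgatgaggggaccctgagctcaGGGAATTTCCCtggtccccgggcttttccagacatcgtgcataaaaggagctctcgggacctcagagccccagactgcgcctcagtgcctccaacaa
Ccl9: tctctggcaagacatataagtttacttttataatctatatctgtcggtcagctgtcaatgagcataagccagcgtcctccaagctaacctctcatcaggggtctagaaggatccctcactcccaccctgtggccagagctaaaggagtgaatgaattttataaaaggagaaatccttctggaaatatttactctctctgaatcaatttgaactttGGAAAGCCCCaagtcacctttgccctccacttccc
Il6: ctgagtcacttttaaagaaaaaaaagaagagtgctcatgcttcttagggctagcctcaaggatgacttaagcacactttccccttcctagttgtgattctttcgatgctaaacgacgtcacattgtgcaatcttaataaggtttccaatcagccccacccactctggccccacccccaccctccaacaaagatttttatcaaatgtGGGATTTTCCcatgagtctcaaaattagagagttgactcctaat

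In Cxcl2 the capitals cover overlapping matches on both strands, 97 to 87 bases before the start. The match in Ccl9 lay 35 to 26 bases before the start, and that in Il6 44 to 35 bases before it. The NFAT core GGAAA was in 9 of the 10 windows and in 7 of the 8 genes, all but Ccl6. It is short, however, and was in 55.6% of all windows. The AP-1 motif TGANTCA was in 3 of the 10 windows, 1 each of Ccl9, Il1rn and Il6 (6.75% of all windows). TATAAA was also in 3 of the 10, those of Ccl9, Il1b and Tnf (12.4%). Some of these matches share letters: the kappaB match of each printed window contains an NFAT core. A match describes letters, not binding.

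Hes1 itself, the targeted gene, had 8.36, 10.4 and 12.4 CPM (counts per 1000000 counts of the library) in Hes1KO replicates 1, 2 and 3, against 53.3 and 28.5 CPM in WT replicates 2 and 3. WT replicate 1 had 0 counts of Hes1, which at its depth allows up to 45.3 CPM, so it says little about the label. That library holds 66167 counts, against 5812598 to 22131465 in the other 5, and 1 count is worth 15.1 CPM in it; its counts are therefore given apart. WT replicate 3 also stands apart, with 32.7% of its counts from 6 erythroid markers, against at most 0.244% in every other library. The labelled cell type was not visible in its markers. The 14 stromal markers, led by Eng and Vcam1, made up 0.00265% to 0.0111% of the counts, and Prrx1, the gene whose promoter drives the Cre, had 2, 0 and 1 counts in Hes1KO and 0, 1 and 0 in WT. Lum, a collagen-binding matrix protein, had 0, 1 and 1 counts in Hes1KO and none in WT.

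**Figure D1:**
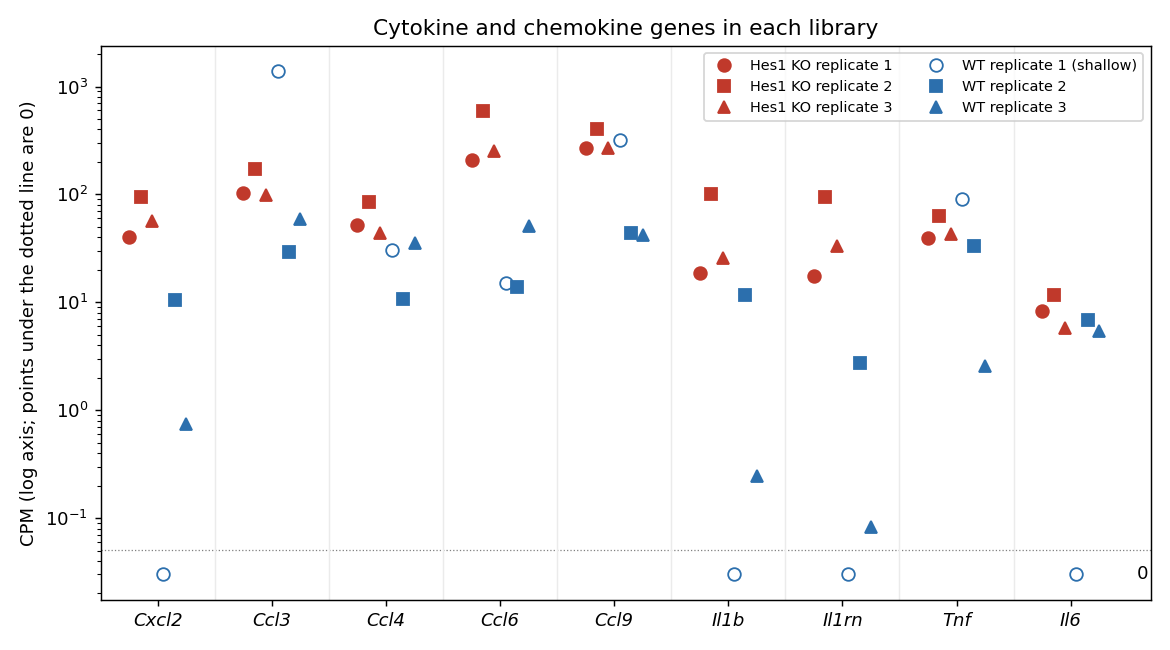
CPM of the 9 genes in each library, on a log axis, with each point a library and points under the dotted line at 0. Hes1KO points (red) lie above WT replicates 2 and 3 (filled blue) for every gene except Il6, while the open points of shallow WT replicate 1 lie highest for Ccl3 and Tnf.

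Cxcl2, a neutrophil attractant, was the gene of the 9 that rose in Hes1KO when WT replicate 1 was left out. It had 40.7, 94.1 and 56.4 CPM in Hes1KO replicates 1, 2 and 3, against 10.5 and 0.743 CPM in WT replicates 2 and 3. The lowest Hes1KO library was 3.88 times the highest WT library, so the groups did not overlap. The log2 fold change was 3.56 (SE 0.81, adjusted p = 0.0437 by edgeR's quasi-likelihood test with Benjamini-Hochberg adjustment over all genes, n = 3 and 2). Cxcl2 shares 7.59% of its 31-base words with Cxcl3, a close relative, but Cxcl3 itself had at most 14 counts in any library. The Cxcl2 call needed all 3 Hes1KO libraries: without replicate 1, 2 or 3 its log2 fold change was 3.80, 2.94 and 3.64, with adjusted p = 0.132, 0.138 and 0.12 by the same edgeR test. It was also lost by limma-voom (3.68, adjusted p = 0.056) and with scaling by library size alone (3.51, adjusted p = 0.152 by edgeR). Its log2 fold change was 5.06 without WT replicate 2 and 2.90 without WT replicate 3. Such fits keep 1 WT library and cannot measure the spread in WT, so only fold changes are given for them here and below.

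Over the 5 libraries without WT replicate 1, 1 of the 9 genes was thus called higher in Hes1KO and none lower. Of all 16190 genes tested, 7.44% were called higher and 8.09% lower, so 1 of 9 is close to the background. The median log2 fold change of the 9 genes was 2.10, with 8 positive values, beside a median of 0.02 over all genes, of which 50.7% were positive. By CPM, every Hes1KO library lay above WT replicates 2 and 3 for 8 of the 9 genes, which was so for 35.1% of all genes tested. With CPM scaled by TMM (trimmed mean of M values, a correction for the makeup of each library) this held for 6 of the 9, against 31.2% of all genes. Ccl3 and Ccl4 then overlapped as Il6 does.

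With all 6 libraries, edgeR called 0 of the 9 genes, and 0% of the 14756 genes tested. At an unadjusted p under 0.05 there were 4 of the 9 genes and 2200 of all genes. DESeq2 called 793 genes with the same libraries, among them Il1rn, Il1b and Cxcl2, and limma-voom called 0. The median log2 fold change of the 9 genes was 1.40, beside 0.03 over all genes. By CPM, 5 of the 9 genes had every Hes1KO library above every WT library (24.7% of all genes tested), and likewise 5 by TMM-scaled CPM (22.6%). For 3 of these genes WT replicate 1 is at 0 counts, and its upper limit of 45.3 CPM lies above some of the Hes1KO values.

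The summed neutrophil and monocyte markers were higher in Hes1KO than in WT replicates 2 and 3, as most of the 9 genes were by CPM. From WT replicate 2 to WT replicate 3 both sums fell. By CPM, 3 of the 9 genes, Ccl3, Ccl4 and Ccl6, rose between these libraries and the others fell. The 13 neutrophil markers, led by S100a9 and S100a8, made up 4.85%, 13.1% and 5.92% of the counts in Hes1KO replicates 1, 2 and 3, against 0.978%, 1.52% and 0.0358% in WT replicates 1, 2 and 3. All 13 had a positive log2 fold change in the 5 libraries (median 3.24), and 1, Cxcr2, passed the test. Of all genes tested, 7.44% were called higher, so 1 of 13 is close to the background. The 14 monocyte and macrophage markers, led by Lyz2 and F13a1, made up 1.30%, 2.25% and 1.37% in Hes1KO, against 1.43%, 0.275% and 0.0213% in WT. Of the 13 of these that were tested, 6 were called higher and none lower (median 2.70); Lyz2 is also made by neutrophils. Hes1KO replicate 2, the library with the most neutrophil marker counts, had the highest CPM among Hes1KO libraries for 9 of the 9 genes. The share of all genes highest in this library was not computed. Elane and Mpo of the neutrophil list were lowest there among Hes1KO libraries, at 294 and 1049 CPM, and the other markers of that list highest. The part of these markers in each result below was not tested. In bulk RNA a change in the number of cells of a type and a change in RNA per cell cannot be told apart.

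**Figure D2:**
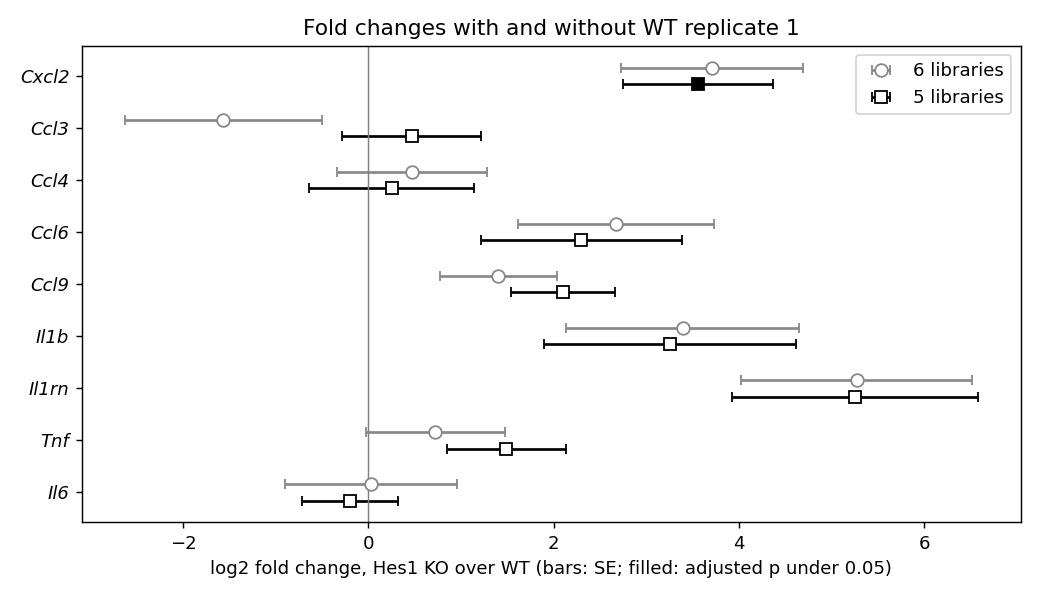
Log2 fold change of Hes1KO over WT for each gene (points, with bars of 1 SE), from all 6 libraries (grey circles) and from the 5 without WT replicate 1 (black squares); filled points passed an adjusted p under 0.05. Cxcl2 with 5 libraries is the filled point, at 3.56, and Ccl3 changes sign between the fits, from -1.56 to 0.47.

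Among the other chemokines, Ccl6 and Ccl9 had higher values in Hes1KO that did not pass the test. Ccl6, a Ccr1 ligand made by myeloid cells, had 206, 589 and 254 CPM in Hes1KO, against 13.9 and 51.3 CPM in WT replicates 2 and 3. These groups did not overlap, yet WT replicate 3 was 3.68 times WT replicate 2. The log2 fold change was 2.30 (SE 1.09, adjusted p = 0.171 by edgeR). With 1 WT library left it was 4.97 without WT replicate 3 and 1.43 without WT replicate 2. It was also 1.43 without Hes1KO replicate 2 (adjusted p = 0.431), and 3.42 with library size alone (adjusted p = 0.147), both by edgeR. Ccl6 overlaps E230016K23Rik on the opposite strand. That gene had 69, 109 and 80 counts in Hes1KO and at most 4 in WT, and since the strand setting of the counting is not given, the 2 genes' reads cannot be separated with certainty.

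Ccl9, a second Ccr1 ligand, was the chemokine with the narrowest relative spread by CPM among Hes1KO libraries and between WT replicates 2 and 3. It had 268, 407 and 272 CPM in Hes1KO, against 43.9 and 42.2 CPM in WT replicates 2 and 3. The lowest Hes1KO library was 6.10 times the higher of these WT libraries. By TMM-scaled CPM, the scaling used in the test, WT replicates 2 and 3 lay further apart, at 32.1 and 94.9. On that scale the Hes1KO libraries had 212 to 386. WT replicate 1, at 317 CPM from 21 counts, lay inside the Hes1KO range by CPM. Its log2 fold change of 2.10 (SE 0.56) narrowly missed the threshold, at adjusted p = 0.0575 by edgeR. DESeq2 gave 2.04 and adjusted p = 0.00575. With 1 WT library left, edgeR gave 3.12 without WT replicate 3 and 1.53 without WT replicate 2. Scaling by library size alone gave 2.87 (adjusted p = 0.147 by edgeR).

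Ccl3 and Ccl4 (macrophage inflammatory proteins 1 alpha and 1 beta) overlapped between the groups once the libraries were scaled by TMM. Ccl3 had 102, 170 and 98.6 CPM in Hes1KO, against 29.4 and 59.5 CPM in WT replicates 2 and 3. Ccl4 had 52.4, 85.0 and 43.7 CPM in Hes1KO, against 10.7 and 35.8 CPM. On the TMM-scaled scale WT replicate 3 rose to 134 CPM for Ccl3 and 80.4 CPM for Ccl4, inside the Hes1KO ranges of 79.6 to 162 and 35.3 to 80.7. Over the 5 libraries the log2 fold change was 0.47 for Ccl3 (SE 0.75, adjusted p = 0.668) and 0.25 for Ccl4 (SE 0.89, adjusted p = 0.852), both by edgeR. With library size alone the values were 1.47 (adjusted p = 0.201) and 1.38 (adjusted p = 0.257) by edgeR, and by limma-voom 0.98 (adjusted p = 0.401) and 1.11 (adjusted p = 0.426). The values of Ccl3 and Ccl4 depended on which WT library was kept. Without WT replicate 3 they were 2.36 and 2.79, and without WT replicate 2 they were -0.31 and -0.61. Leaving out Hes1KO replicate 2 also turned their signs, to -0.08 for Ccl3 (adjusted p = 0.958) and -0.33 for Ccl4 (adjusted p = 0.85) by the same edgeR test.

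The interleukin-1 pair had the largest fold changes of the 9 genes beside Cxcl2, and the widest spread among Hes1KO libraries. Il1b had 18.6, 102 and 26.0 CPM in Hes1KO, against 11.7 and 0.248 CPM in WT replicates 2 and 3. Hes1KO replicate 2 was 5.45 times the lowest Hes1KO library. The log2 fold change of 3.25 (SE 1.36) gave adjusted p = 0.135 by edgeR and 0.027 by DESeq2. Without WT replicate 2 it was 6.29, where WT rests on the 3 counts of WT replicate 3. Without WT replicate 3 it was 2.42, and without Hes1KO replicate 2 it was 1.85 (adjusted p = 0.359 by edgeR). Il1b overlaps Il1bos on the opposite strand, which had at most 9 counts in any library.

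Il1rn, the antagonist, had 17.6, 93.9 and 33.6 CPM in Hes1KO, against 2.75 and 0.0826 CPM in WT replicates 2 and 3. The WT values stand on 16 and 1 counts, and the lowest Hes1KO library was 6.39 times the highest WT library. Its log2 fold change of 5.25 (SE 1.33) was the largest of the 9 genes and missed the threshold at adjusted p = 0.0516 by edgeR. It passed with no filter on low counts (5.42, adjusted p = 0.0491 by edgeR) and by DESeq2 (5.20, adjusted p = 4.24e-05). By edgeR it was 7.82 without WT replicate 2 and 4.48 without WT replicate 3, each with 1 WT library left. It did not pass by limma-voom (5.28, adjusted p = 0.11) or with library size alone (5.14, adjusted p = 0.147 by edgeR). Nor did it pass by edgeR without Hes1KO replicate 1, 2 or 3 (5.64, 4.08 and 5.46, adjusted p = 0.134, 0.147 and 0.127). The ratio of Il1rn to Il1b counts was 0.944, 0.925 and 1.29 in Hes1KO replicates 1, 2 and 3, against 0.235 in WT replicate 2 and 0.333 in WT replicate 3. The Hes1KO ratios lay above both WT ratios, of which the second is 1 count over 3; this difference was not tested.

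Tnf, the founding member of its cytokine family, had 39.6, 63.5 and 43.3 CPM in Hes1KO, against 33.0 and 2.56 CPM in WT replicates 2 and 3. The lowest Hes1KO library was 1.20 times WT replicate 2, and WT replicate 3 was far lower. The log2 fold change was 1.49 (SE 0.64, adjusted p = 0.144 by edgeR). With 1 WT library left it was 2.88 without WT replicate 2 and 0.84 without WT replicate 3. Il6, per kilobase the lowest of the 9 in each Hes1KO library, was the gene whose groups overlapped by CPM and by TMM-scaled CPM. It had 8.31, 11.7 and 5.84 CPM in Hes1KO, against 6.88 and 5.37 CPM in WT replicates 2 and 3. Its log2 fold change was -0.20 (SE 0.52, adjusted p = 0.799 by edgeR), and 0.49 (adjusted p = 0.622) with scaling by library size alone. Of the 3 genes whose windows are printed above, Cxcl2 thus rose, Ccl9 had 2.10 without passing, and Il6 had -0.20.

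In WT replicate 1 the genes had a pattern of their own. It held 92 counts of Ccl3, or 1390 CPM (95% Wilson interval 1134 to 1705, counting error only), above each of the other 5 libraries. It held 21 counts of Ccl9, 6 of Tnf, 2 of Ccl4 and 1 of Ccl6, and 0 of Cxcl2, Il1b, Il1rn and Il6. The Tnf value was 90.7 CPM (interval 41.6 to 198) and the Ccl9 value 317 CPM (interval 208 to 485). The ratio of Ccl3 to Ccl4 counts was 46.0 in this library, against 1.67 to 2.76 in the other 5. Its monocyte and macrophage markers, at 1.43% of counts, were within the Hes1KO range. With it in the fit, the log2 fold change of Ccl3 was -1.56 (SE 1.07, adjusted p = 0.511 by edgeR), that of Tnf 0.72 (SE 0.75, adjusted p = 0.658) and that of Il6 0.03 (SE 0.92, adjusted p = 0.991).

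Relative to monocyte and macrophage markers the 9 genes were not alike. Cxcl2 had 3.12, 4.18 and 4.12 counts per 1000 marker counts in Hes1KO, and 3.82 and 3.49 in WT replicates 2 and 3, so the ratio of the called gene to these markers overlapped between the groups. Relative to the neutrophil markers, Cxcl2 had 0.840, 0.718 and 0.951 counts per 1000 in Hes1KO, and 0.693 and 2.08 in WT replicates 2 and 3. Tnf was lower in Hes1KO on the monocyte scale, with 3.04, 2.82 and 3.17 against 12.0 and 12.0, and 6.33 in WT replicate 1 (6 counts). Il6 was likewise lower, with 0.638, 0.518 and 0.426 against 2.51 and 25.2, with 0 counts in WT replicate 1. Il1rn was higher in Hes1KO on that scale, with 1.35, 4.17 and 2.46 against 1.00 and 0.388. Ccl3, Ccl4, Ccl6 and Ccl9 were set apart in WT replicate 3, at 280, 168, 241 and 198 per 1000 marker counts, where these markers made up 0.0213% of the counts. In Hes1KO the same 4 genes had 3.20 to 26.1. Lyz2, which neutrophils also make, gave 176395 of 288586, 388034 of 476943 and 193823 of 281367 of these marker counts in Hes1KO replicates 1, 2 and 3. In WT replicates 1, 2 and 3 it gave 33 of 948, 9281 of 15963 and 622 of 2578. The monocyte scale therefore leans on Lyz2 to an unlike degree between libraries, and ratios without Lyz2 were not computed. None of the ratios was tested.

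**Figure D3:**
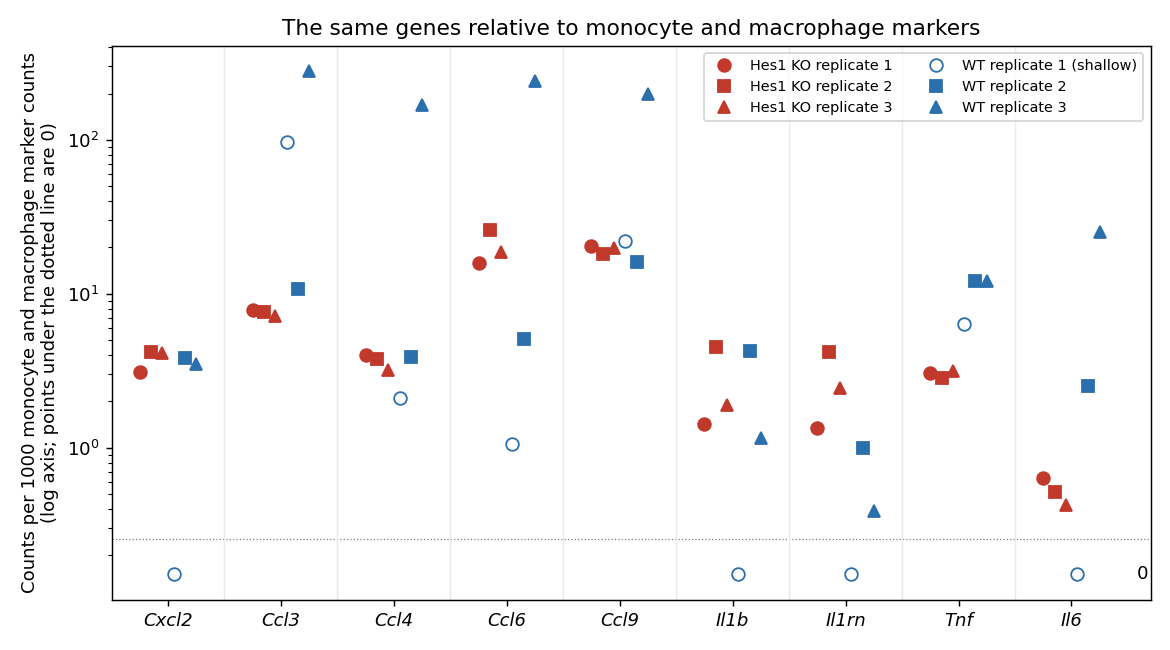
Counts of each gene per 1000 counts of the 14 monocyte and macrophage markers, by library, on a log axis, with points under the dotted line at 0. Cxcl2 lies between 3.12 and 4.18 in all libraries except WT replicate 1 (0 counts). On this scale Tnf is lower in Hes1KO than in every WT library, with 6 counts of Tnf in WT replicate 1. The 4 Ccl genes are highest in WT replicate 3. Lyz2, which neutrophils also make, gives an unlike share of the marker counts between libraries, and ratios without it were not computed.

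Levels between genes were compared per kilobase of the longest coding transcript in GENCODE. Ccl6 was the highest in Hes1KO replicate 2, at 409 CPM per kilobase, followed by Ccl3 at 222, Ccl9 at 135 and Ccl4 at 129. These 4 genes led in the same order in the other Hes1KO libraries. In WT replicate 2 Ccl3 was highest at 38.4 CPM per kilobase, Tnf came next at 20.2 and Ccl6 was below Ccl4 and Ccl9 at 9.68. In WT replicate 3 the order was Ccl3 at 77.7, Ccl4 at 54.2, Ccl6 at 35.6 and Ccl9 at 14.0 CPM per kilobase. The order of Ccl6 and Ccl9 among the leading genes therefore differed between the WT libraries themselves.

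The profiles of the genes over the 5 libraries differed. Likeness was measured as the root mean square (RMS) difference of centred log2(TMM-scaled CPM + 1) profiles, where 0 is the same profile. Ccl3 and Ccl4 were the most alike pair, at 0.21, and Il1rn and Il6 the least alike, at 2.33. With a pseudocount of 5 in place of 1, Ccl3 and Ccl4 were still the most alike (0.13), but Ccl6 and Il6 were the least alike (1.58), ahead of Ccl6 and Tnf (1.57) and Il1rn and Il6 (1.53). Cxcl2 was close to Il1rn (0.52) and Il1b (0.55), and all 3 were lower in WT replicate 3 than in WT replicate 2. Ccl3, Ccl4 and Ccl6 had the reverse order by CPM, and by TMM-scaled CPM, on which the profiles rest, Ccl9 and Il6 had it too. Among 10185 genes with a mean of at least 5 CPM, the closest to Cxcl2 were G0s2 (0.13), which encodes an inhibitor of fat breakdown, Pi16 (0.14), a peptidase inhibitor family member, and Pglyrp1 (0.16), a bactericidal protein of neutrophil granules. These distances rest on 5 libraries and describe them.

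**Figure D4:**
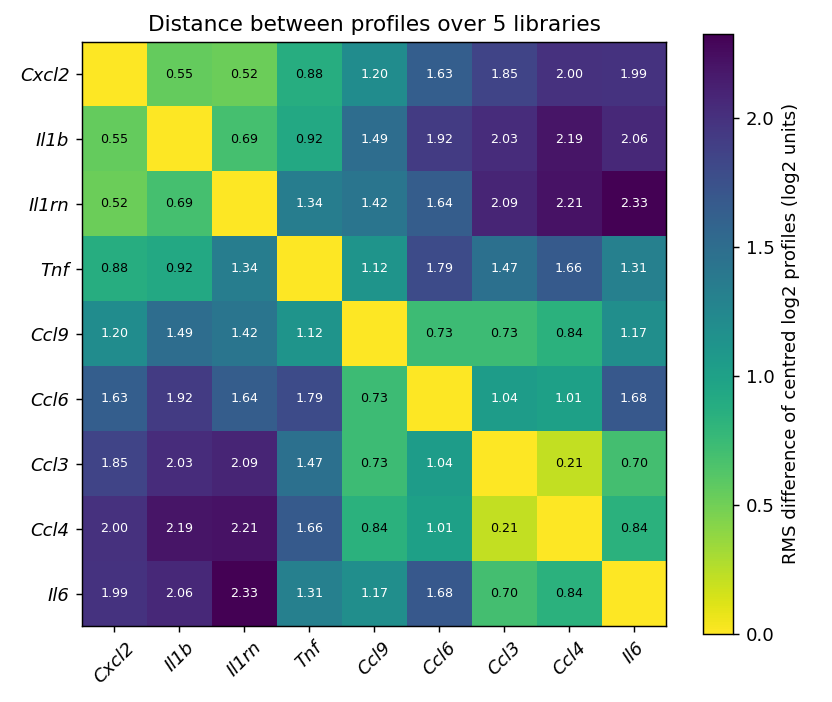
RMS difference between the centred log2 profiles of each pair of genes over the 5 libraries other than WT replicate 1, in log2 units, with light cells for alike profiles. Cxcl2, Il1b and Il1rn lie within 0.69 of each other, and Ccl3 and Ccl4 at 0.21, while pairs across these groups lie at 1.85 or more.

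The receptors of these chemokines were higher in Hes1KO. Of 5 chemokine receptors tested in the 5 libraries, 3 rose and none fell (median log2 fold change 2.90). The shares of all genes tested were 7.44% called higher and 8.09% called lower. Cxcr2, the receptor of Cxcl2 and also 1 of the 13 neutrophil markers, had 84.5, 233 and 113 CPM in Hes1KO against 18.2 and 6.69 CPM in WT (log2 fold change 3.15, adjusted p = 0.033 by edgeR). Ccr1, the receptor of Ccl3, Ccl6 and Ccl9, had 83.6, 209 and 90.5 CPM against 21.2 and 5.95 CPM (2.96, adjusted p = 0.0351). Ccr2, which guides monocytes out of the marrow, had 1035, 872 and 708 CPM against 188 and 26.8 CPM (2.90, adjusted p = 0.031). None of the 7 other chemokines tested passed. Ccl2, the ligand of Ccr2, had 459, 347 and 284 counts in Hes1KO against 14 and 0 in WT (3.96, adjusted p = 0.0861), and Cxcl12, which retains blood stem cells in the marrow, had a log2 fold change of 0.26 (adjusted p = 0.833).

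Beside 7.44% of all genes called higher and 8.09% lower, 4 of 17 genes of the interleukin-1 system tested rose and none fell (median 0.78). They were Myd88, the adaptor of the interleukin-1 and Toll-like receptors (1.39, adjusted p = 0.0361 by edgeR), Casp1, the enzyme that cleaves interleukin-1 beta (1.38, adjusted p = 0.0317), Gsdmd, the pore protein that caspase-1 activates (1.28, adjusted p = 0.0474), and Irak4, a kinase that acts after Myd88 (1.17, adjusted p = 0.0333). With WT replicate 1 in the fit, Irak4 had -0.55. Of 10 genes of the Tnf system, Tnfrsf1b, the second Tnf receptor, rose (2.24, adjusted p = 0.0294 by edgeR). Birc2, a ubiquitin ligase of the receptor complex, fell (-0.72, adjusted p = 0.0497 by edgeR). These calls, 1 of 10 each way, are close to the shares of all genes. Birc2 overlapped between the groups by CPM, with 66.8, 53.2 and 68.6 CPM in Hes1KO against 114 and 40.1 CPM in WT replicates 2 and 3. It had 0 counts in WT replicate 1, which allows up to 45.3 CPM, below every Hes1KO library. In WT replicate 1 Tnfrsf1b had 408 CPM, above its 155 to 180 CPM in Hes1KO, and the log2 fold change over 6 libraries was 0.59. None of 7 genes of the interleukin-6 system passed (median 0.57). Its most abundant members, the kinase Jak1 and the transcription factor Stat3, had -0.36 (adjusted p = 0.426) and 0.57 (adjusted p = 0.127).

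Other cytokines and the regulators of cytokine messages gave calls in both directions. Among the 11 other cytokines, 1 call each way is close to the shares of all genes, 7.44% higher and 8.09% lower. Of 11 other cytokines tested, Tnfsf14, a ligand of the Tnf family also named LIGHT, rose (3.41, adjusted p = 0.0348 by edgeR), with 314, 438 and 232 counts in Hes1KO against 15 and 3 in WT. Il12a, a subunit of interleukins 12 and 35, fell (-1.88, adjusted p = 0.03), with 19.3, 18.8 and 24.8 CPM in Hes1KO against 64.7 and 37.1 CPM in WT. Of 6 regulators of messenger RNA decay, 2 fell and none rose (median -0.73). Zfp36l1 binds AU-rich elements such as those of the Tnf message. It had 63.0, 50.3 and 81.1 CPM in Hes1KO against 431 and 110 CPM in WT replicates 2 and 3 (-2.37, adjusted p = 0.0294 by edgeR). WT replicate 1 had 0 counts of Zfp36l1, which allows up to 45.3 CPM, below every Hes1KO library. Over 6 libraries its log2 fold change was -1.87 (adjusted p = 0.478 by edgeR). Rc3h1, which encodes the RNA-binding protein roquin, had -1.44 (adjusted p = 0.0303), although its CPM overlapped between the groups. The 8 B-lineage markers made up 0.483% and 0.235% of counts in WT replicates 2 and 3, against 0.0798% to 0.139% in Hes1KO. Their sum, like Il12a and Zfp36l1, was lower in Hes1KO than in these WT libraries, and the part of these markers was not tested. In WT replicate 1 they made up 0.0181%, below every Hes1KO library. With all 6 libraries no gene of these lists passed, and without any 1 of the 3 Hes1KO libraries edgeR called none of all genes, with 3954 to 4143 at an unadjusted p under 0.05.

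**Figure D5:**
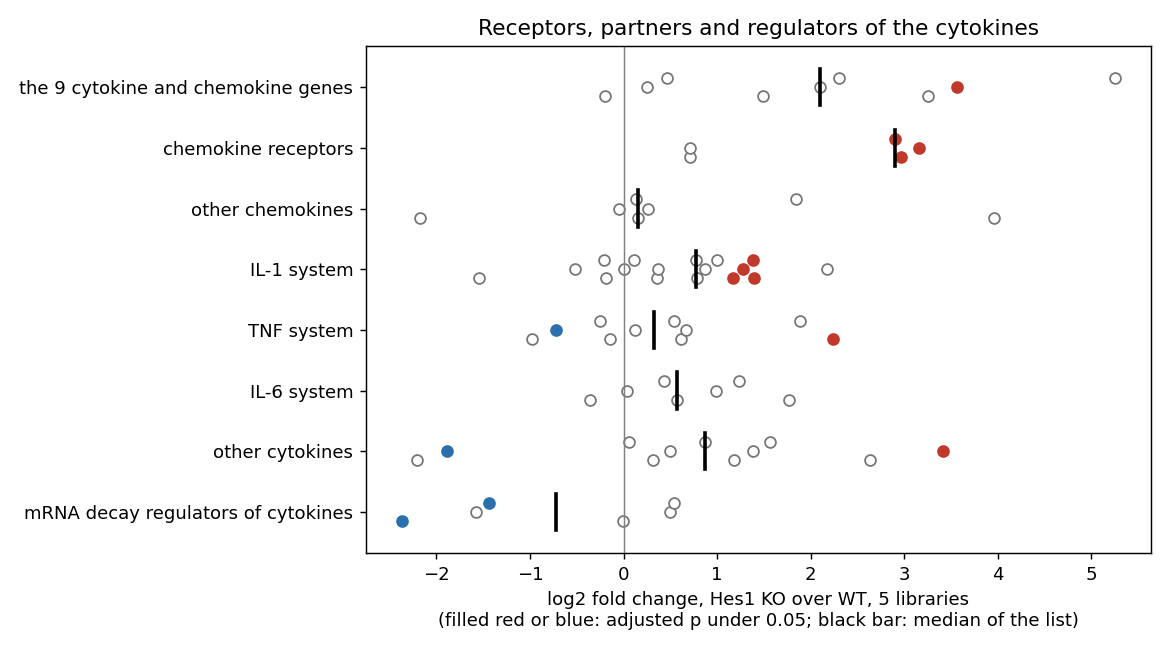
Log2 fold change of Hes1KO over WT in 5 libraries for the 9 genes and each list of related genes, with each point a gene, filled red or blue where it passed higher or lower, and a black bar at the list's median. The chemokine receptors have the highest median, 2.90, and the regulators of messenger RNA decay the lowest, -0.73.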

How the data were processed

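RNA-seq was compared between 3 Hes1KO and 3 WT mouse libraries, made with a stranded poly-A kit from column-purified RNA per the labels. The authors deposited 1 table of whole-number counts of reads per gene symbol. The aligner, counting settings and strand option were not given in the sources used here; GRCm39, edgeR and limma are named in the submitters' processing notes. Genes were tested with edgeR 4.0.16 in R 4.3.3: filterByExpr, TMM factors, the quasi-likelihood test with the legacy option off, Benjamini-Hochberg adjustment over all genes tested, and a threshold of 0.05. It was run on all 6 libraries and on the 5 without WT replicate 1. SE was taken as the absolute log2 fold change over the root of the F statistic. CPM is counts per 1000000 of a library's total; a count of 0 allows up to 3 counts; intervals are 95% Wilson intervals, for counting error only. Library depth was 66167 to 22131465 counts, so low genes in WT replicate 1 cannot be measured. The test was tried on simulated data.

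The 9 genes, the gene and marker lists, the motifs and the use of 5 libraries were chosen with earlier results of these data known. Named were the 9 genes and Hes1; of each pathway list the genes that passed with 5 libraries, up to 5, or else the 2 of highest mean CPM; of each marker list discussed the 2 of highest mean CPM and markers at 0; and the most and least alike pair, with the 3 genes most like each of the 9 that passed. Values of T and NK, basophil and mast, and endothelial markers are given with the closing observations. Promoter windows came from RefSeq (GRCm38.p6), and transcript lengths, shared 31-base words and overlapping genes from GENCODE on GRCm38; no coordinates were converted. Alternatives were other scalings (RLE size factors, library size alone), filters, the legacy option, a threshold of 0.01, DESeq2 1.42.0, limma-voom 3.58.1, a replicate block and leaving out each library.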

Additional observations from a re-analysis of the deposited data

How the results depend on the processing

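With 6 libraries, DESeq2 called 793 genes and 3 of the 9 genes, and leaving out 1 library gave 0 to 2513 genes and 0 to 1 of the 9, the higher values without WT replicate 1; other settings called none. With 5 libraries (2513 genes, 1 of the 9), scaling by library size alone called 0 and 0, limma-voom 1440 and 0, DESeq2 4997 and 4, and no filter on low counts 1913 and 2 (Cxcl2 and Il1rn). At an adjusted p under 0.01 edgeR called 0 genes and 0 of the 9. Leaving out 1 library gave 0 to 6210 genes and 0 to 6 of the 9: none without any Hes1KO library, 4809 and 4 without WT replicate 2, 6210 and 6 without WT replicate 3; a group then left with 1 library is assumed to vary like the other. At an unadjusted p under 0.05, library size alone had 3679 genes. That scaling moved the median over all genes from 0.02 to 0.44 (log2). With the replicate number as a block, edgeR called 0 genes with 6 or 5 libraries (900 and 2770 at an unadjusted p under 0.05) and 0 of the 9; Cxcl2 then had 4.13 (adjusted p = 0.272). The labels do not say whether the numbers pair the libraries. Deviations of same-numbered libraries correlated at 0.15, -0.01 and 0.29, and those of differently numbered libraries at -0.22 to 0.04. Hes1KO replicates 1 and 3 correlated best with the WT library of the same number, and Hes1KO replicate 2 with WT replicate 1. So few libraries cannot decide whether they are paired.

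With 6 libraries, Il6 (0.03) turned to -0.10 with RLE size factors, -0.20 by DESeq2, -0.14 by limma-voom and -0.13 with the legacy option; leaving out 1 library gave -0.49 to 0.71. Ccl3 (-1.56) turned to 0.077 by limma-voom, and leaving out 1 library gave -2.17 to 0.47 for Ccl3 and -0.16 to 2.39 for Ccl4. With 5 libraries, Il6 (-0.20) turned to 0.49 with library size alone; leaving out 1 library gave -0.72 to 0.61 for Il6, -0.31 to 2.36 for Ccl3 and -0.61 to 2.79 for Ccl4. Where not given beside the result, causes were not tested. The signs of Cxcl2, Ccl6, Ccl9, Il1b, Il1rn and Tnf held in every setting run, and leaving out 1 of the 5 libraries gave 2.90 to 5.06 for Cxcl2. Depth limits most WT values of Il1rn and all low genes of WT replicate 1.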

Other observations

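Summed over the 5 chemokines, the level was 669, 1345 and 725 CPM in Hes1KO replicates 1, 2 and 3, 108 and 190 CPM in WT replicates 2 and 3, and 1753 CPM in WT replicate 1, where 92 of 116 counts are of Ccl3. The ratio of Ccl6 to Ccl9 counts was 0.772, 1.45 and 0.934 in Hes1KO, 0.318 and 1.22 in WT replicates 2 and 3, and 0.048 in WT replicate 1 (1 count over 21). The 7 basophil and mast cell markers, a further source of cytokines in marrow, made up 0.155%, 0.209% and 0.132% of counts in Hes1KO, and 0.153%, 0.0104% and 0.0322% in WT replicates 1, 2 and 3. The 9 T and NK markers made up 0.00768% to 0.00838% in Hes1KO and 0.0816%, 0.00315% and 0.00567% in WT replicates 1, 2 and 3. The 5 endothelial markers made up 0.00900% to 0.0129% in Hes1KO and 0.0484%, 0.0139% and 0.00800% in WT.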
